A study of Mus musculus with 6 samples.

Results

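The 69 genes described here encode the nuclear subunits of oxidative phosphorylation (OXPHOS) in the mouse, out of 13730 genes in the deposited table of counts. They were chosen by symbol alone, as genes whose names begin with Ndufa, Ndufb, Ndufc, Ndufs, Ndufv, Uqcr, Atp5 or Cox4 to Cox8, together with Sdha to Sdhd and Cyc1, a rule that uses no measured value. The 6 Ndufaf assembly factors in the table and Atp5s were left out. By complex, 7 members are core and 22 are accessory subunits of complex I, 4 belong to complex II, 9 to complex III, 12 to complex IV and 15 to complex V. Of the 69 members, 55 passed the filter on low counts and were tested. Of the 20 further RefSeq genes that meet the naming rule, among them Ndufa2, Ndufb5, Ndufs5 and Cox7a2 and the tissue-restricted Cox4i2, Cox6a2, Cox7a1 and Cox8b, none was analysed here.

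OXPHOS is the process by which mitochondria pass electrons from NADH and succinate to oxygen and use the released energy to make ATP. Complexes I and II feed electrons to ubiquinone, complex III passes them to cytochrome c, complex IV reduces oxygen to water, and complex V, the ATP synthase, makes ATP from the resulting proton gradient. Every complex but complex II combines subunits encoded in the nucleus with subunits encoded in mitochondrial DNA, and many tumors lean on glycolysis beside this pathway.

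The study asked how sulindac sulfide (SS), an anti-inflammatory drug metabolite that modulates gamma-secretase, changes a transplanted mouse model of triple-negative breast cancer (TNBC). RNA was sequenced from 6 tumors, 3 in the Control group and 3 in the SS group. They grew in female FVB mice of 6 to 10 weeks with C0321 cells injected in Matrigel into the mammary fat pad. A separate mouse for each tumor was assumed. C0321 is a clonal line derived from an FVB mouse lacking Lunatic Fringe (Lfng), so all 6 tumors carry that knockout. SS was given by mouth at 60 mg/kg daily for 14 days. The sample labels name the drug Sulindac Sulfate where the methods name the sulfide, and the control is named saline in the one source and vehicle in the other.

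The tumors yielded between 8468914 and 24441522 counts, so that 3 counts, the floor used here, lie between 0.123 and 0.358 CPM, that is, counts scaled to a common library total. The groups hold 3 tumors each, which cannot give an exact permutation p below 0.1. The p-values measure the spread between these tumors. In bulk tissue, fewer cells of a type and less RNA per cell cannot be told apart. The tumors held different amounts of RNA from skeletal muscle, a tissue rich in OXPHOS. The summed level of 12 muscle markers was 6085, 12350 and 1356 CPM in Control (tumors 1, 2 and 3 in this order here and throughout) and 353, 25240 and 13390 CPM in SS. All 11 tested muscle markers, Myh4 and Acta1 among them, had a higher mean in SS, and none had an unadjusted p under 0.05. White adipocyte markers ranged from 38.3 to 577 CPM and endothelial markers from 39.7 to 93.5 CPM. Leukocyte markers summed to 629, 637 and 698 CPM in Control and 863, 687 and 744 CPM in SS. Of the 7 tested, 5 were above 0 and 2, Itgam and Cd3e, were below. At an unadjusted p under 0.05 in edgeR, 1 of the 7 was higher in SS, against 3.19% of all tested genes. It was the integrin gene Itgax, with groups that did not overlap (log2 fold change 1.24, unadjusted p 0.00100 and adjusted p 0.679 in edgeR). Of 7 brown adipocyte markers 3 had values, with sums between 0.205 and 15.7 CPM. For the tumor cells, Vim was at 5875 to 8620 CPM and Epcam at 0.0410 to 2.98 CPM, while Krt8 stood at 417 to 544 CPM. Of the 9 epithelial and mesenchymal markers of the tumor, 7 were below 0, and Krt18 was lower in SS at an unadjusted p of 0.00387 in edgeR, with groups that did not overlap (log2 fold change -0.50, adjusted p 0.760). The part of these cell types in the values of the members was not tested.

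Upstream of OXPHOS genes, binding letters of NRF1, a transcription factor long tied to respiratory genes, were looked for because the members share a pathway and not a genome location. RefSeq promoter sequences (GRCm38.p6, 250 bases before and 50 after the start) were found for 56 of the 69 members. Letters were read on both strands. GCGCA, any base and GCGC in a row occurred in 14 of these 56, and 9 of the 14 were tested members. The letters occurred in 10.6% of the 8382 tested genes with a promoter sequence and 4.78% of all 27025 promoters. The 56 include members that were not tested, so here and for the letters that follow they are not a like set to the tested genes. The shares among tested members alone are not given. The YY1 letters ATGGCGG occurred in 14.3% of member promoters against 8.59% of those of tested genes and 4.19% of all promoters, and the ETS letters CCGGAAG in 26.8% against 18.1% and 9.12%. The letters CCAAT were in 41.1% of member promoters against 38.3% and 37.9%, and the TATA box letters TATAAA in 8.93% against 6.91% and 14.2%. A site could match the NRF1 letters on both strands at once and was then counted as 1. Below, 6 of the NRF1 matches are printed with 10 bases on each side, from members of high and of low level, on the strand of the gene and with the matching letters in capitals.
Sdha: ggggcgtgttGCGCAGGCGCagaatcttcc
Sdhd: tcgctggggtGCGCACGCGCggtggcagcg
Atp5g2: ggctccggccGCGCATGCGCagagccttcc
Atp5k: tttcactgcgGCGCATGCGCctttctggct
Ndufa8: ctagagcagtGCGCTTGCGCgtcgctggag
Ndufa11: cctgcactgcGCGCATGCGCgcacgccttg

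The Sdha site lies at chr13:74350276-74350305 on the minus strand, its match beginning 55 bases before the start, and is 1 of 3 in that promoter. The Sdhd site lies at chr9:50603909-50603938, the Atp5g2 site at chr15:102671070-102671099, the Atp5k site at chr5:108434430-108434459 and the Ndufa8 site at chr2:36049349-36049378, all on the minus strand. The Ndufa11 site lies at chr17:56717692-56717721 on the plus strand. Members holding these letters spanned mean levels from 0.256 CPM per kb of transcript for Ndufa11 to 597 for Atp5g3. The match describes letters in these windows and is not a measured binding site.

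Within complexes II to V and among the accessory subunits of complex I, the members stood at very unequal levels in the deposited counts. The lowest levels rest on few counts, and whether counting lost reads of short subunits was not tested. Per kb of transcript, the scale on which genes can be compared, the members ran from 0.248 CPM per kb for Cox7c to 597 CPM per kb for Atp5g3, a ratio of 2410. The median was 9.21 CPM per kb, against 5.28 over all tested genes. The ratio of highest to lowest was 70.2 in complex III, 117 in complex II, 256 among the complex I accessory subunits, 1550 in complex IV and 1750 in complex V.

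**Figure D1:**
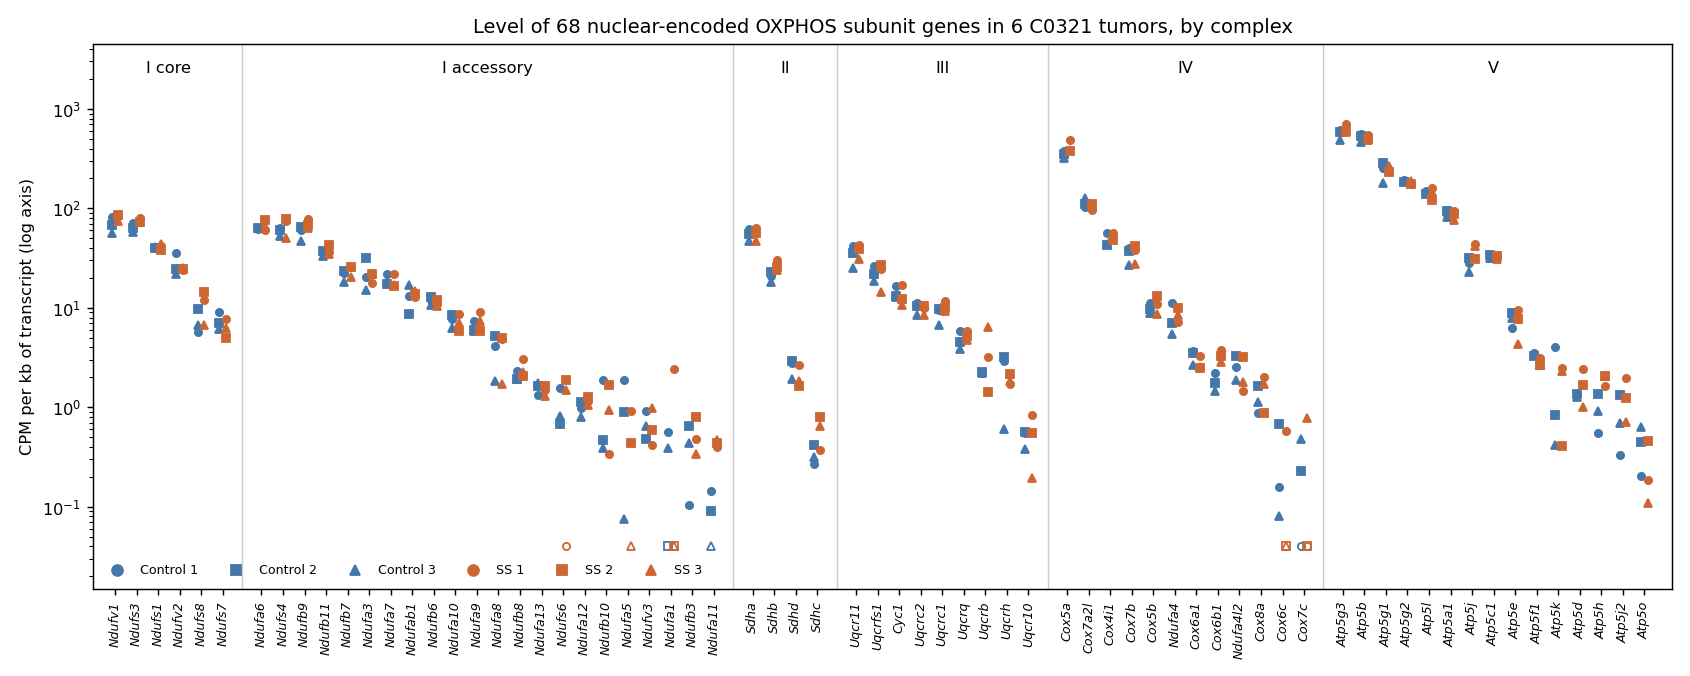
Level of the members in each tumor, 1 left out, in CPM per kb of transcript (log axis), grouped by complex and ordered by mean. Blue marks Control and orange SS, with circle, square and triangle for tumors 1, 2 and 3, and open symbols at the bottom stand for 0 counts. In complexes II to V the points fall over at least 70.2-fold from the highest to the lowest member, while the 6 tumors of 1 member mostly lie close together.

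The 14 members not tested were Ndufa1, Ndufa5, Ndufa11, Ndufa12, Ndufb3, Ndufb10 and Ndufs6 of complex I, Sdhc of complex II, Uqcr10 of complex III, Cox6c and Cox7c of complex IV and Atp5j2, Atp5k and Atp5o of complex V. Their counts summed over the 6 tumors ran from 10 to 53, and their mean level was at most 0.602 CPM. Cox7c, a small subunit of the cytochrome c oxidase, had 0, 2 and 5 counts in Control and 0, 0 and 4 in SS. Atp5o, which joins the catalytic head of the ATP synthase to its stator stalk, had 2, 7 and 12 counts in Control and 2, 3 and 1 in SS. Neither was high in any tumor, and their group ranges overlapped. Transcripts of Cox7c, Cox6c, Uqcr10, Ndufa1 and Atp5o are usually abundant, so the levels given here are those of the deposited counts, and whether counting lost reads of short subunits was not tested.

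Low level went with short transcripts. The 32 members under 700 nt had a median of 1.46 CPM and 2.74 CPM per kb, and the 24 members of 1000 nt or more had 27.3 CPM and 23.0 CPM per kb. Over all genes in the table the medians were 5.55 CPM for 419 genes under 700 nt and 8.24 CPM for 12491 genes of 1000 nt or more, while the order per kb was the other way, at 12.0 and 2.75 CPM per kb. Of the 14 members not tested, 13 were under 800 nt. Reads can also be shared with near-identical copies. The 43 members with no 75-nt window in any other transcript, Uqcr10, Ndufa1 and Cox8a among them, had a median of 9.53 CPM per kb. The median was 2.25 CPM per kb for the 11 members with under 10% of windows shared and 6.78 for the 14 with 10% or more. Atp5g2, with 87.0% of windows shared, and Atp5l, with 63.7%, stood at 185 and 144 CPM per kb, while Cox7c shared 50.5% of its windows. Values of members with shared windows are uncertain to that extent. What made short members low was not tested.

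SS and Control tumors did not differ for any member after adjustment. By the edgeR quasi-likelihood method, Benjamini-Hochberg adjusted over 10902 genes, 0 of the 55 tested members had an adjusted p under 0.05, and the smallest among them was 0.771. Over all genes 0% passed in edgeR, with 693 at an unadjusted p under 0.05, and DESeq2 called 47 genes, 0 of them members. Atp5j and Sdhb were the 2 members higher in SS at an unadjusted p under 0.05, 3.64% of the 55, against a background of 3.19% of all tested genes. This count was 0 without Control tumor 3 or SS tumor 1 and 1 without SS tumor 2. No member was lower at that threshold, where 3.16% of all genes were. The groups did not overlap, with SS higher, for 4 members (Ndufs3, Sdhb, Cox6b1 and Atp5h), 7.27% against 6.51% of all genes. With SS lower this held for 1 member, Atp5f1, which is 1.82% against 6.40%.

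The median log2 fold change (SS minus Control) of the 55 members was 0.03, beside -0.00 over all tested genes, and 32 members were above 0 and 23 below. For 22 members the 95% interval lay within 1.5-fold in either direction, and for 40 members it lay within 2-fold, while 15 intervals reached past 2-fold. Among the 30 members with a mean of 10 CPM or more, all 30 intervals lay within 2-fold and 20 within 1.5-fold. The same held for 5720 of the 6287 genes of that level at 2-fold.

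**Figure D2:**
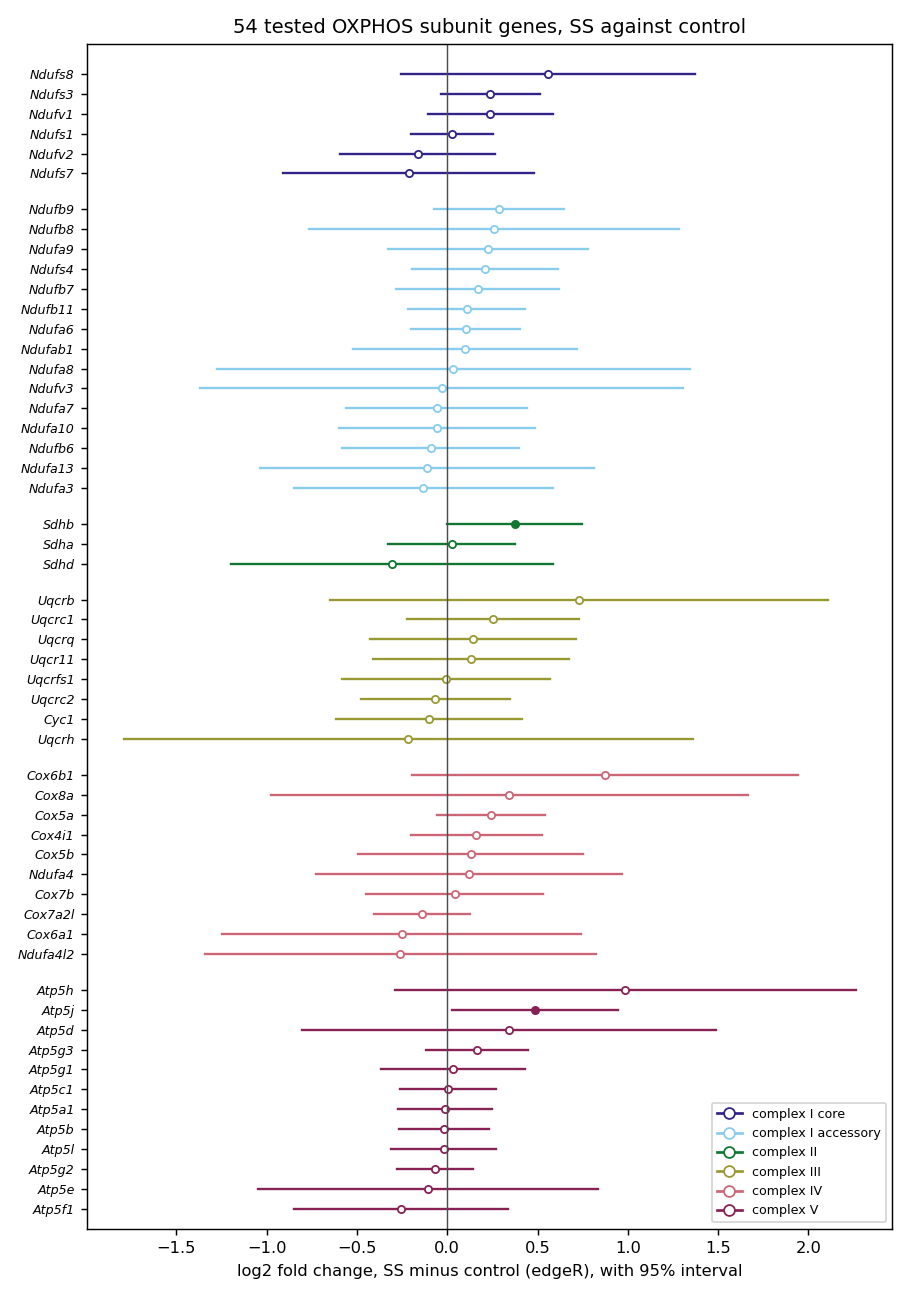
log2 fold change, SS minus Control, of the tested members, 1 left out, with 95% intervals from edgeR, colored by complex and ordered within it. Filled points mark an unadjusted p under 0.05, which only Atp5j and Sdhb reach, and the other intervals shown cross 0.

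Of the complex I core, 4 members had a higher mean in SS and 3 a lower one, with a median log2 fold change of 0.03. Ndufs3, a subunit of the arm that passes electrons toward ubiquinone, was at 66.5, 59.3 and 54.1 CPM in Control and at 75.0, 68.6 and 68.5 CPM in SS. Every SS tumor lay above every Control tumor, by 1.97 CPM or more. The log2 fold change, with its standard error (SE), was 0.24 ± 0.12, and the unadjusted p of 0.0782 in edgeR's quasi-likelihood test missed the threshold. With 1 tumor left out the value ran from 0.17 to 0.32. The highest was without Control tumor 1, at an unadjusted p of 0.0437 in edgeR. Of the Ndufs3 windows 27.1% are shared with other transcripts.

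Ndufv1, which binds the flavin that takes electrons from NADH, was at 132, 111 and 90.6 CPM in Control and 134, 139 and 120 CPM in SS. Control tumor 1 lay within the SS range, and the log2 fold change was 0.24 ± 0.15 (SE). It was 0.38 without Control tumor 1, at an unadjusted p of 0.0295 in edgeR, and 0.11 without Control tumor 3. Ndufs1, the largest core subunit, was the steadiest, at 106, 106 and 110 CPM in Control and 111, 101 and 117 CPM in SS. Its log2 fold change was 0.03, with a 95% interval from -0.20 to 0.25.

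Ndufv2 was at 54.6, 38.2 and 34.0 CPM in Control and 37.2, 37.6 and 38.4 CPM in SS, so that Control tumor 1 alone stood apart. Its log2 fold change was -0.16, with an interval from -0.59 to 0.27. Ndufs8, an iron-sulfur subunit, had the largest value of the core, 0.56 ± 0.35 (SE). It was at 4.51, 7.67 and 5.21 CPM in Control and 9.29, 11.2 and 5.24 CPM in SS, where SS tumor 3 lay within the Control range. With 1 tumor left out the value ran from 0.32 to 0.81. The highest was without SS tumor 3, at an unadjusted p of 0.0375 in edgeR. Ndufs7, which holds the last iron-sulfur cluster before ubiquinone, had the lowest value of the core, -0.21 ± 0.30 (SE).

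Accessory subunits surround the core of complex I and serve its assembly and stability. Of the 15 tested, 9 were above 0 and 6 below, with log2 fold changes from -0.13 for Ndufa3 to 0.29 for Ndufb9 and a median of 0.10. Ndufb9 was at 39.1, 41.8 and 30.6 CPM in Control and 50.3, 44.2 and 41.4 CPM in SS, where Control tumor 2 exceeded SS tumor 3. Its SE was 0.16 and its unadjusted p in edgeR 0.104. Ndufa3 was at 7.11, 11.1 and 5.34 CPM in Control and 6.24, 7.63 and 7.61 CPM in SS, with all SS values inside the Control range. Its value was 0.20 without Control tumor 2 and -0.35 without Control tumor 3. None of the 15 accessory subunits had groups that did not overlap.

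Complex II, succinate dehydrogenase, is shared by the citric acid cycle and the respiratory chain. Sdhb, its iron-sulfur subunit at chr4:140961271-140979198 (GRCm38, plus strand, span of the deposited transcripts), was at 22.6, 24.4 and 19.7 CPM in Control and 32.8, 27.7 and 25.9 CPM in SS. All SS tumors exceeded all Control tumors. The log2 fold change was 0.37 ± 0.16 (SE), with a 95% interval from 0.00 to 0.75. Its p in edgeR was 0.0498 unadjusted and 0.771 adjusted. The call, just under the threshold, was lost without some single tumors and with other scalings. The log2 fold change stayed between 0.26 (without SS tumor 1) and 0.44 (without Control tumor 2). Leaving out a tumor also leaves fewer tumors to test with. In edgeR the unadjusted p was 0.171 without SS tumor 1, 0.146 without Control tumor 3, 0.0831 without Control tumor 1 and 0.0701 without SS tumor 2. It was 0.0502 with RLE scaling and 0.0694 with the muscle markers as a covariate, where the log2 fold change was 0.37.

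Sdhb had 2 transcripts in the table with the same start and end, and the smaller held 43.2% of its counts in every tumor. This fixed share was not read as a measured isoform share. No value for shared windows was obtained for Sdhb. The flavin subunit Sdha was at 179, 157 and 133 CPM in Control and 180, 162 and 134 CPM in SS, and the log2 fold change of 0.02 had an interval from -0.33 to 0.37. Sdhd, a membrane anchor, was at 3.40, 3.64 and 2.38 CPM in Control and 3.27, 2.03 and 2.28 CPM in SS, a log2 fold change of -0.30 ± 0.38 (SE). Sdhc, the other anchor, was not tested and lay between 0.316 and 0.954 CPM in the 6 tumors.

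In complex III, 4 of the 8 tested members were above 0 and 4 below. Cyc1, cytochrome c1, was at 20.2, 14.6 and 12.8 CPM in SS and at 15.8 and 15.2 CPM in Control tumors 2 and 3, with Control tumor 1 just under SS tumor 1. Its log2 fold change was -0.10 ± 0.22 (SE), and with 1 tumor left out it ran from -0.32 to 0.03. Uqcrfs1, the Rieske iron-sulfur protein, spread most among members of 10 CPM or more, at 34.4, 28.6 and 24.4 CPM in Control and 32.3, 35.5 and 19.2 CPM in SS. Its lowest and highest tumors were both in the SS group. Uqcrc1, a core protein, was at 15.7, 16.1 and 11.0 CPM in Control and 19.2, 16.3 and 15.3 CPM in SS. Its log2 fold change of 0.25 had an interval from -0.23 to 0.73 and ran from 0.10 to 0.35 with 1 tumor left out.

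The largest value in complex III was that of Uqcrb, a ubiquinone-binding subunit, 0.73 ± 0.59 (SE). It came from 1.11, 1.13 and 1.11 CPM in Control and 1.60, 0.715 and 3.21 CPM in SS, where SS tumor 2 was the lowest of all. Without SS tumor 3 the value was 0.07, and 29.1% of its windows are shared with other transcripts. Uqcrh, the hinge protein, had the lowest value, -0.21 ± 0.68 (SE), and ran from 0.328 CPM in Control tumor 3 to 1.77 CPM in Control tumor 2. Its value was 0.16 without Control tumor 2 and -0.67 without Control tumor 3.

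Complex IV is the cytochrome c oxidase, and several of its subunits exist as isoforms of different tissues. Of its 10 tested members 7 were above 0, and the median log2 fold change was 0.13. Cox5a was at 243, 229 and 208 CPM in Control and 316, 243 and 247 CPM in SS. SS tumor 1 stood highest, while SS tumor 2 lay just under Control tumor 1. Its log2 fold change was 0.24 ± 0.13 (SE), with an unadjusted p of 0.0960 in edgeR, and ran from 0.11 to 0.31 with 1 tumor left out. Cox4i1, the common isoform of the subunit that ATP regulates, was at 41.5, 31.0 and 32.1 CPM in Control and 41.4, 34.9 and 40.5 CPM in SS, and the groups overlapped. Cox5b was at 6.40, 5.55 and 5.09 CPM in Control and 6.24, 7.51 and 4.90 CPM in SS, with the SS range spanning the Control range.

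Cox6b1 had the largest value of complex IV, a log2 fold change of 0.88 ± 0.46 (SE). It was low throughout, at 1.11, 0.885 and 0.739 CPM in Control and 1.89, 1.67 and 1.44 CPM in SS, and the groups did not overlap. Without adjustment, edgeR gave a p of 0.0951 and DESeq2 one of 0.174, while it was 0.00248 with quantile normalization and an ordinary per-gene statistic. The liver-type and ubiquitous isoforms Cox6a1, Cox7b and Cox8a had log2 fold changes of -0.25, 0.04 and 0.34, with SEs of 0.43, 0.21 and 0.57, and overlapping groups. Cox7a2l, a relative of the Cox7a subunits that joins complexes III and IV into supercomplexes, was at 112, 119 and 137 CPM in Control and 103, 119 and 111 CPM in SS. It was highest in Control tumor 3, where 23 of the 55 tested members were lowest, and had a log2 fold change of -0.14 with an interval from -0.41 to 0.13.

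Ndufa4, which is named for complex I but is a subunit of complex IV, was at 5.45, 3.44 and 2.71 CPM in Control and 3.56, 4.89 and 4.14 CPM in SS. Its hypoxia-induced relative Ndufa4l2 was at 2.37, 3.05 and 1.77 CPM in Control and 1.38, 2.98 and 1.69 CPM in SS, with the lowest value of complex IV, -0.26 ± 0.47 (SE). Per kb, Ndufa4 stood at 8.19 and Ndufa4l2 at 2.36 CPM. Neither pair of groups was separate.

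Complex V held the members with the highest levels, Atp5b and Atp5g3, and also some near the floor. Atp5b, the catalytic beta subunit, was at 1048, 1004 and 867 CPM in Control and 1027, 936 and 921 CPM in SS. The SS values lay inside the Control range, and the log2 fold change of -0.02 had an interval from -0.27 to 0.23. The other large subunits of the catalytic head, Atp5a1 and Atp5c1, had log2 fold changes of -0.01 and 0.01, with SEs of 0.11 for each. Atp5c1 stayed between 36.2 and 39.4 CPM in all 6 tumors.

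Atp5g1, Atp5g2 and Atp5g3 encode the same c subunit of the membrane ring and differ in their import peptides. Per kb they stood at 245, 185 and 597 CPM. Their log2 fold changes were 0.03, -0.07 and 0.16, with SEs of 0.17, 0.091 and 0.12. Atp5g3 was at 437, 423 and 350 CPM in Control and 502, 431 and 423 CPM in SS, with Control tumor 1 inside the SS range. Atp5g2 was the steadiest of the members at 100 CPM or more, between 113 and 125 CPM in all tumors, and shares most of its windows with other transcripts.

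Atp5j, coupling factor 6 of the stator stalk at chr16:84827871-84835625 (GRCm38, minus strand), was at 18.5, 21.0 and 15.2 CPM in Control and 28.7, 20.4 and 27.4 CPM in SS. SS tumor 2 lay just under Control tumor 2, and the other SS tumors lay above all Control tumors. The log2 fold change was 0.49 ± 0.20 (SE), with a 95% interval from 0.03 to 0.94. Its p in edgeR was 0.0403 unadjusted and 0.771 adjusted. The unadjusted p was 0.124 without Control tumor 3, 0.127 without SS tumor 1, 0.110 without SS tumor 3 and 0.0708 without Control tumor 1, so the call did not hold without any of these 4 tumors. The log2 fold changes were then 0.37, 0.39, 0.43 and 0.49 in the same order. Adjustment for the muscle markers gave 0.48 with an unadjusted p of 0.0577 in edgeR.

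Atp5h and Atp5f1, both of the stator stalk, had groups that did not overlap in opposite directions. Atp5h was at 0.316, 0.786 and 0.534 CPM in Control and 0.944, 1.19 and 1.18 CPM in SS, the largest log2 fold change of all members at 0.99 ± 0.55 (SE). Its level was near the floor and 40.4% of its windows are shared. Atp5f1 was at 5.69, 5.26 and 5.34 CPM in Control and 5.01, 4.29 and 4.31 CPM in SS, a log2 fold change of -0.26 ± 0.25 (SE).

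Summed over all 69 members, OXPHOS RNA was at 3780, 3637 and 3153 CPM in Control and 3922, 3598 and 3456 CPM in SS. SS tumors 2 and 3 lay inside the Control range. The mean was 3523 ± 328 CPM for Control and 3659 ± 239 CPM for SS (SD, n = 3 each), a log2 ratio of 0.05, which is less than the spread between tumors. Atp5b alone made up much of this sum, and without it the log2 ratio was 0.08. The log2 ratio was highest for the complex I accessory subunits, 0.15, and 0.12 for complex IV, 0.07 for complex II, 0.05 for the complex I core, 0.04 for complex III and 0.03 for complex V. In every complex the 2 groups overlapped.

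**Figure D3:**
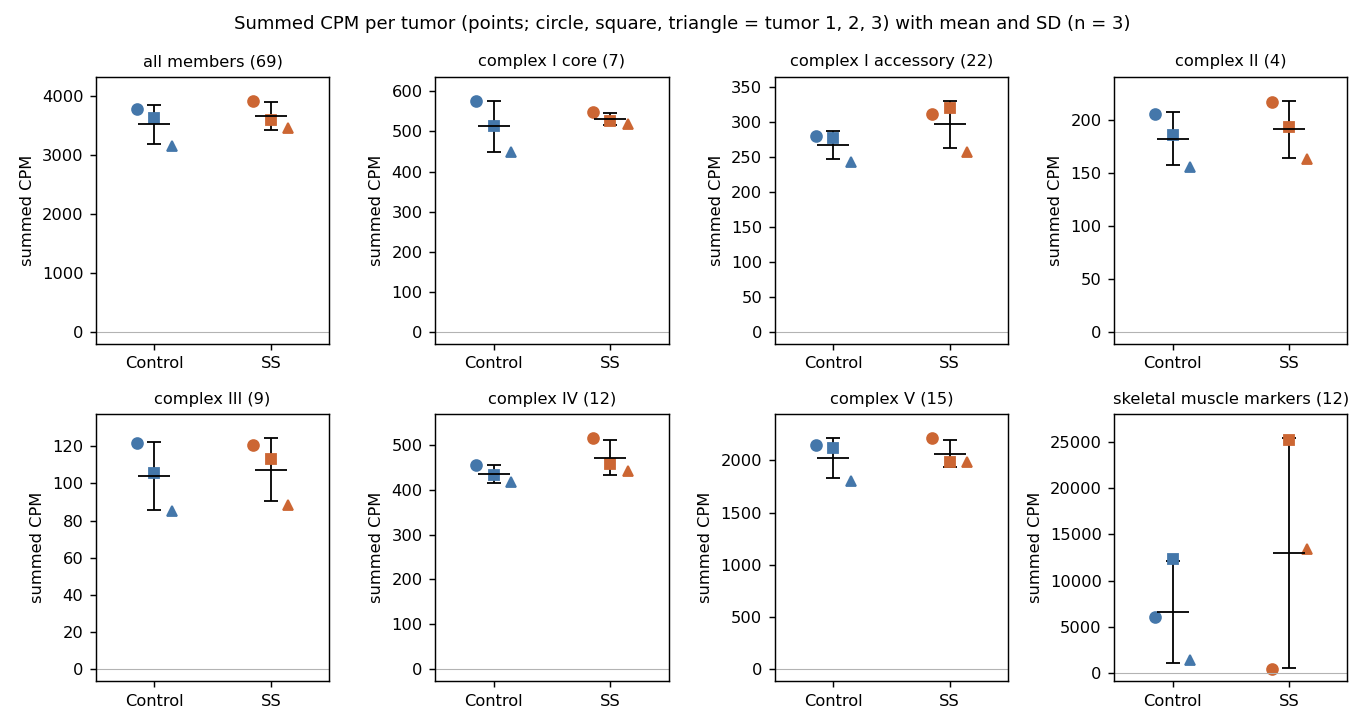
Summed CPM of all members, of each complex and of the 12 skeletal muscle markers in each tumor, with the mean and SD of each group (n = 3). Control tumor 3 is lowest in all 7 member panels, and SS tumor 1, the highest for all members at 3922 CPM, is lowest for the muscle markers at 353 CPM.

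The direction of the sum rested on Control tumor 3 and on SS tumor 1. Control tumor 3 was the lowest of the 6 for each complex and for 17 of the 30 members at 10 CPM or more. SS tumor 1 was the highest for 13 of these members. Of other genes at that level, 15.7% were lowest in Control tumor 3. Without Control tumor 3 the log2 ratio of the sums was -0.02 and the median log2 fold change of the members -0.02, and without SS tumor 1 the ratio was -0.00. By the muscle markers, SS tumor 1 had the least of it with the highest OXPHOS sum, SS tumor 2 had the most with a middle sum, and Control tumor 3 was low in both. The part of muscle in the sums was not tested. With the muscle markers as a covariate in edgeR the median log2 fold change was 0.05, and 0 members had an unadjusted p under 0.05. The log2 fold changes of Atp5j and Sdhb were then 0.48 and 0.37, against 0.49 and 0.37 without the covariate. A covariate also leaves less information to test the groups with.

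Between tumors of the same group, members at 10 CPM or more varied about as much as other genes of their level. Those under 10 CPM had smaller SDs than the genes under 10 CPM, but levels were not matched within that class. At 10 to 100 CPM the median SD of log2 CPM within groups was 0.19 for 19 members and 0.22 for 4632 genes. At 100 CPM or more it was 0.16 for 11 members and 0.14 for 1655 genes. Under 10 CPM it was 0.33 for 25 members and 0.49 for 4615 genes, and 22 of these 25 members lay under that median. Atp5g2 had the lowest SD of the members, 0.047, and Uqcrh the highest, 0.81.

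**Figure D4:**
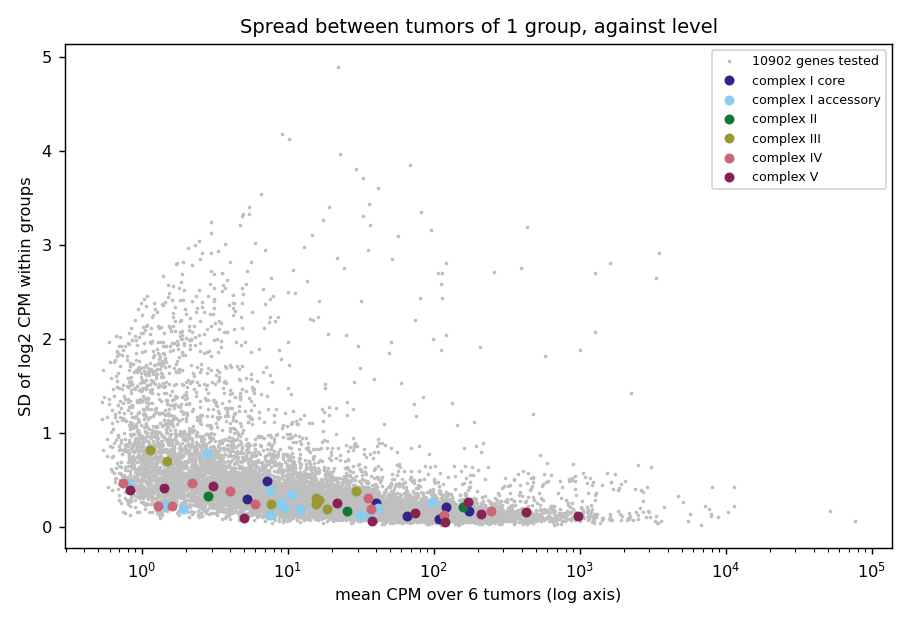
SD of log2 CPM within groups against mean CPM (log axis) for 10902 tested genes in gray and the 55 tested members in color by complex. Members lie in the lower part of the gray cloud under 10 CPM and in its middle above, with SDs between 0.047 and 0.81.

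Of the 30 members at 10 CPM or more, 20 had a Pearson correlation above 0.5 with the mean log2 CPM of the other 29 over the 6 tumors, with a median of 0.63. Of 6257 other genes of that level, 16.8% had a correlation above 0.5 with the mean of these 30 members. Uqcr11, a small complex III subunit, was closest to the others at 0.98, and Cox7a2l ran against them at -0.86. The members share library and scaling in each tumor, and these values describe 6 points. Among 10847 tested genes that are not members, the 5 most like the mean of all 55 tested members were also found. They included Psmb4, a proteasome subunit (0.99), and Ak3, a mitochondrial adenylate kinase (0.99). Coro1a, an actin-binding protein of leukocytes, and Ulk2, a kinase of autophagy, were also among them (0.99 each).

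For 10 members the table held several transcripts, and for Cox4i1 their shares differed widely between tumors. Cox4i1 has a transcript at chr8:120668225-120674209 and a later-starting one at chr8:120668320-120674209 (GRCm38, plus strand). The later-starting transcript held 27.4%, 35.5% and 8.64% of Cox4i1 counts in Control and 7.81%, 37.0% and 27.1% in SS. The groups overlapped, and Control tumor 3 and SS tumor 1 stood far below the other tumors. These are the 2 tumors with the least muscle RNA. Cox4i1 was singled out after its values were seen, and the part of muscle in its share was not tested. In the same 2 tumors the second Ndufs1 transcript held 25.6% and 27.3% of the counts, against 10.1% to 15.5% in the other 4. The second Atp5g3 transcript held 29.6% and 28.4% in these 2 tumors and 18.8% to 23.9% in the other 4. The second transcript set these 2 tumors apart from the other 4 for 3 of the 10 members, Cox4i1, Ndufs1 and Atp5g3, and did not for 7. The second Ndufv3 transcript held almost none of the counts in Control tumor 1 and SS tumor 1, 48.9% in Control tumor 3 and 26.3% to 64.2% in the others, and the first Ndufa7 transcript held 70.8% in Control tumor 3 and 50.2% in SS tumor 1. The shares are estimates from reads that overlapping transcripts have in common.

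**Figure D5:**
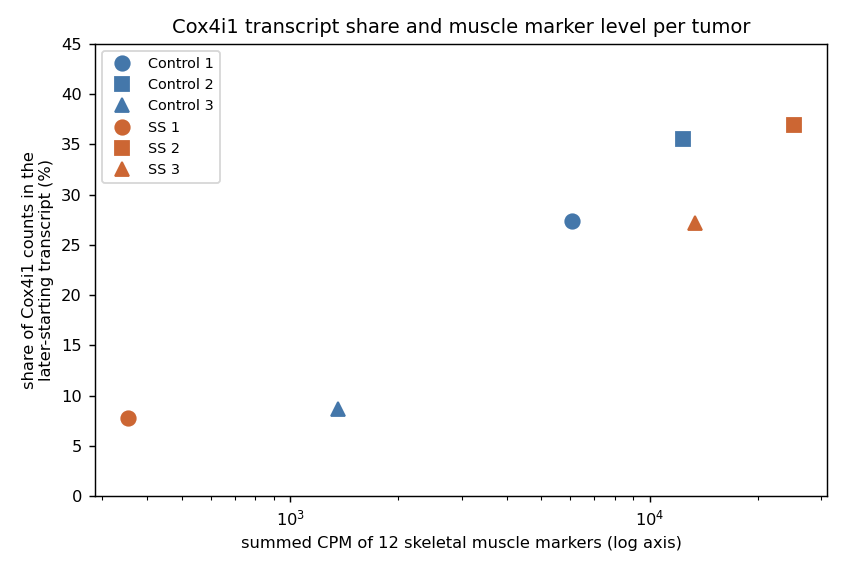
Share of Cox4i1 counts in the later-starting transcript (percent) against the summed CPM of 12 skeletal muscle markers (log axis), 1 point per tumor. The tumors at 353 and 1356 CPM of muscle markers have shares of 7.81% and 8.64%, and the other 4 have shares between 27.1% and 37.0%.

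Lists of related genes gave the surroundings of these subunits, and no gene of any list passed adjustment in edgeR's test. Of 28 tested assembly factors, which build the complexes, 19 were above 0, with a median log2 fold change of 0.09 and 0 at an unadjusted p under 0.05. The 17 genes of the citric acid cycle and pyruvate dehydrogenase had 9 above 0 and a median of 0.03, and the 13 electron carriers and ubiquinone synthesis genes 6 above 0 and a median of -0.00. Both lists had 0 genes at an unadjusted p under 0.05 in edgeR, as did the 14 tested regulators of mitochondrial gene expression, with 8 above 0. Nrf1 itself was at 30.7, 31.2 and 27.0 CPM in Control and 35.9, 47.6 and 26.8 CPM in SS, and the groups overlapped.

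The 10 genes for ADP, phosphate and protein import had 10 values below 0, with a median of -0.10 and 0 at an unadjusted p under 0.05 in edgeR. Slc25a3, the phosphate carrier, lay between 326 and 358 CPM in Control and between 301 and 339 CPM in SS. Of 14 tested genes of glycolysis and hypoxia 13 were below 0, with a median of -0.17. In that list 2 of 14 genes were lower in SS at an unadjusted p under 0.05 in edgeR, as were 3.16% of all genes. They were Egln3, an oxygen-sensing hydroxylase induced by hypoxia (log2 fold change -0.97 ± 0.40, SE), and Hk2, which phosphorylates glucose (log2 fold change -0.41 ± 0.18, SE). Egln3 was at 47.7, 58.6 and 118 CPM in Control and 35.3, 23.3 and 55.4 CPM in SS, and SS tumor 3 lay within the Control range. Hk2 was at 115, 105 and 154 CPM in Control and 108, 94.6 and 78.5 CPM in SS, with SS tumor 1 inside the Control range and an unadjusted p of 0.04998 in edgeR. Both genes were highest in Control tumor 3. The 13 subunits encoded in mitochondrial DNA were not analysed here.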

How the data were processed

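The authors read stranded libraries of polyadenylated RNA as 75-nt pairs and deposited estimated counts for 20648 RefSeq transcripts, without normalization, each with at least 10 counts over the 6 tumors. The submitters' processing notes name STAR 2.5.3a, Bowtie2 2.2.5 and the build mm10, without a role for each. The counting tool is not given in the sources used here. The deposited estimated counts were summed per symbol and rounded, after 21 symbols held as dates were restored. All 6 tumors entered 1 edgeR 4.0.16 (R 4.3.3) quasi-likelihood fit, scaled by TMM and filtered by filterByExpr, and p-values were adjusted over 10902 genes by Benjamini-Hochberg. CPM uses TMM-scaled totals. Lengths came from GENCODE M21 models within the deposited ends, and copies from BLAST 2.17.0+ and shared 75-nt windows.

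The genes named were every member at an unadjusted p under 0.05, the highest and lowest value of each complex, fixed core subunits and isoform families, and the members not tested. Some genes that meet this rule are not reported here. Non-overlapping members and transcript shares were added after their values were seen. The members and lists were chosen with earlier results of these data known. The code was tested on simulated data. Alternatives were other scalings, DESeq2 1.42.0, limma 3.58.1 (voom with sample weights), quantile normalization, other filters, the most abundant transcript, a replicate block and leaving out each tumor.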

Additional observations from a re-analysis of the deposited data

How the results depend on the processing

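The count of members higher in SS at an unadjusted p under 0.05, 2 in edgeR with TMM scaling, was 1 with RLE scaling, upper-quartile scaling, no scaling beyond the total, DESeq2, limma-voom with sample weights or no filter on low counts. It was 0 with the most abundant transcript and with the muscle markers as a covariate, which was added after the data were seen, 2 with quantile normalization (Sdhb and Cox6b1), and between 0 (without Control tumor 3 or SS tumor 1) and 3 (without SS tumor 3) without 1 tumor. Nothing in the labels says that same-numbered tumors share a batch or are paired, so they were treated as unpaired. Deviations of same-numbered tumors correlated at 0.12, 0.02 and 0.08. With the replicate number as a block the count was 0 and the median log2 fold change of the members 0.04. The count of members lower in SS was 0 throughout. Genes past adjustment numbered 47 in DESeq2 and 0 in each other alternative run for that count, which leaves out the most abundant transcript. The median log2 fold change of the members lay between 0.02 and 0.09 over the alternatives with all 6 tumors and between -0.02 and 0.13 without 1 tumor, and moved by less than the spread between tumors in each. The log2 ratio of the sums lay between 0.03 and 0.05 with all tumors and between -0.02 and 0.11 without 1. For 36 named members, 574 of 610 values under an alternative kept their sign. None of the Atp5j and Sdhb values changed sign. Atp5j lost its call with quantile normalization, the block, the most abundant transcript, the muscle covariate and without Control tumor 1 or 3 or SS tumor 1 or 3. Sdhb lost it in every alternative but quantile normalization, the filter at 1 CPM in 3 tumors and the sets without Control tumor 2 or SS tumor 3. For the ratio of sums, voom weights, the block and the covariate give no value. The 14 members below the filter had between 10 and 53 counts over 6 tumors, and none had an unadjusted p under 0.05 in DESeq2 or in edgeR without the filter.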
